A study of Mus musculus with 2 samples.

Results

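Mir124a-1, Mir124a-2, Mir124a-3, Mir9-1, Mir9-2 and Mir9-3 are 6 microRNA genes that make up 2 families of 3 loci each. They were chosen by their GENCODE M21 symbols, 6 of the 2202 genes in the count tables, and all 6 were found once in each table. Small RNAs shorter than 30 bases had been sequenced, per the labels, from 2 females of the F1 hybrid strain B6CASTF1/J, aged 4 days, with 1 library of the left cerebral cortex from each. Both libraries belong to a single group, for which the labels name no treatment, so levels are described and no test between conditions was possible. The labels number the mice separately and list the libraries as biological replicates 1 and 2, under 1 shared donor record. Differences below are between these 2 libraries.

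A microRNA gene is transcribed as a longer RNA that contains a hairpin, from which enzymes cut short mature strands of the 5′ arm (5p) and of the 3′ arm (3p). A mature strand pairs with messenger RNAs mainly through its seed, bases 2 to 8, and lowers their output. miR-124 is a classic neuronal microRNA that accumulates as progenitors become neurons. miR-9 is made in neural progenitors and in neurons, where it acts on regulators of neurogenesis. Each is encoded by 3 separate loci.

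RefSeq sequences (build GRCm38.p6) were matched for 3 of the 6 genes, Mir9-1, Mir9-2 and Mir9-3. Their mature strands are shown first because every copy encodes the same pair. Capitals mark the seed.
miR-9-5p: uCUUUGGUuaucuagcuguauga
miR-9-3p: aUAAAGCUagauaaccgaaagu
Each strand was found at 3 loci among the annotated mouse hairpins. The seeds differ between the arms, and no other mature name in the RefSeq table carried either seed. A read of exactly one of these strands therefore matches 3 places equally well. The counts below hold reads placed at a single locus, while reads that mapped to several places stand in a separate total that was given to no gene.

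The hairpins show where the Mir9 loci can be told apart. Capitals mark the mature strands, and lower case the flanks and the loop between them.
Mir9-1: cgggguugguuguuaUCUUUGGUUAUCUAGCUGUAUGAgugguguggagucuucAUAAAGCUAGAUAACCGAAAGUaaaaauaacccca
Mir9-2: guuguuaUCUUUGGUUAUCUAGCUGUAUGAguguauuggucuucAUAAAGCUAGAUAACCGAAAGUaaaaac
Mir9-3: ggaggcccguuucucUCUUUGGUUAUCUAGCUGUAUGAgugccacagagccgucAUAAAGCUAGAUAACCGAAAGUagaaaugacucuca
Mir9-1 and Mir9-2 share a stretch of 33 bases that starts in the 5′ flank, and another of equal length around miR-9-3p. Mir9-3 shares at most 26 bases in a row with either of them. Of the 22-base windows in each annotated hairpin, 60 of 69 (87.0%) in Mir9-3 were found at no other locus, against 44 of 68 (64.7%) in Mir9-1 and 27 of 51 (52.9%) in Mir9-2. Over all 2202 hairpins the share of such windows was 67.9%. Windows at all 3 loci numbered 9 in each Mir9 hairpin. Windows at 2 loci numbered 15 in Mir9-1, 15 in Mir9-2 and 0 in Mir9-3. Matches were exact and on either strand, and the rest of the genome was not searched.

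**Figure D1:**
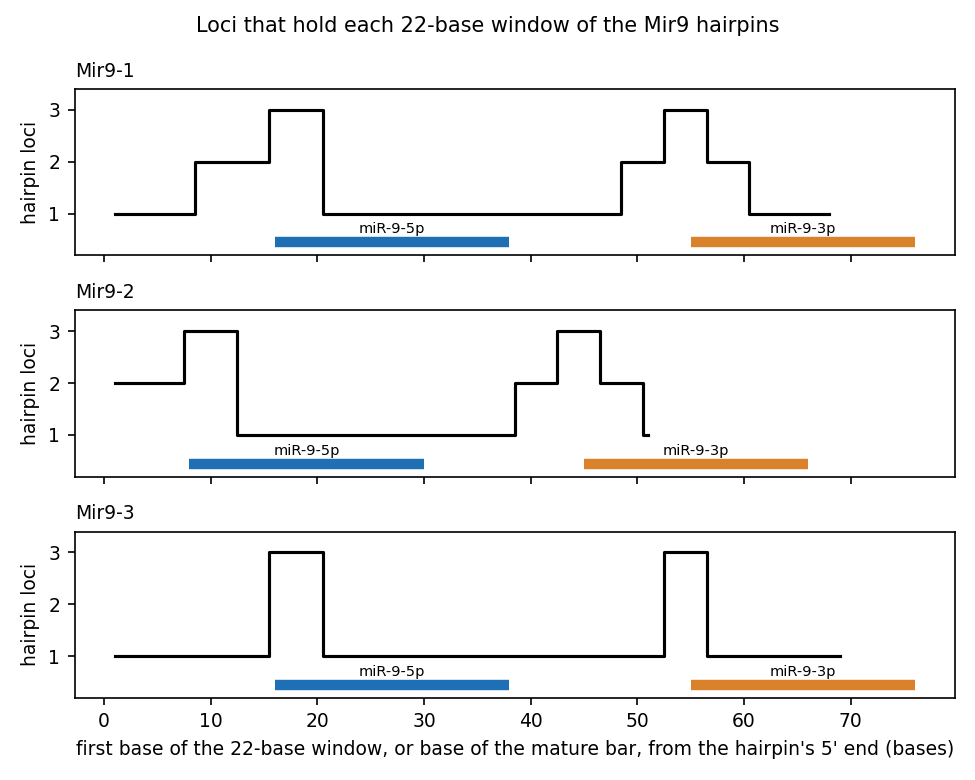
Number of annotated hairpin loci (y axis) that hold each 22-base window of Mir9-1, Mir9-2 and Mir9-3, by the first base of the window counted from the hairpin's 5′ end in bases (x axis). Blue and orange bars mark the bases of miR-9-5p and miR-9-3p. Windows on the mature strands reach 3 loci in every copy, and Mir9-3 has none at 2 loci.

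The shortest extension of a mature strand that was found at a single locus differed between the copies. For miR-9-3p extended at its 3′ end, Mir9-3 needed 2 added bases (24 in all) and Mir9-1 and Mir9-2 needed 6 each (28 in all). These are shown because they are the shortest 3p forms that name a locus. Capitals mark the added bases.
Mir9-3, 3p with 2 bases: auaaagcuagauaaccgaaaguAG
Mir9-1, 3p with 6 bases: auaaagcuagauaaccgaaaguAAAAAU
Mir9-2, 3p with 6 bases: auaaagcuagauaaccgaaaguAAAAAC
At the 5′ end of miR-9-5p, 1 added base was enough for Mir9-3.
Mir9-3, 5p with 1 base: Cucuuugguuaucuagcuguauga
Mir9-1 needed 8 added bases there, which makes 31 in all and exceeds the sequenced size. The annotated Mir9-2 hairpin ended before a form found at a single locus was reached. At the 3′ end of miR-9-5p the copies did not differ in length, with 4 added bases for each.
Mir9-1, 5p with 4 bases: ucuuugguuaucuagcuguaugaGUGG
Mir9-2, 5p with 4 bases: ucuuugguuaucuagcuguaugaGUGU
Mir9-3, 5p with 4 bases: ucuuugguuaucuagcuguaugaGUGC
The tables give counts per whole hairpin, so which of these forms the counted reads had was not tested.

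Mir9-3 had the most reads of the 6 copies. It had 647 reads in replicate 1 and 548 in replicate 2. In CPM, reads scaled to an equal total over microRNA genes in each library, its level was 182 and 198, with a mean of 190 ± 11.7 (SD, n = 2). This placed it at rank 192 of the 2202 genes by mean CPM. Mir9-3 (ENSMUSG00000093238.1) lies at chr7:79505264-79505353 on the plus strand of mm10, in an intron of the noncoding host transcript Mir9-3hg.

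Mir9-1 was next, with 277 and 158 reads and a level of 77.9 and 57.2 CPM (67.6 ± 14.6, n = 2), at rank 247. It lies at chr3:88215598-88215686 on the plus strand (ENSMUSG00000106493.1), in an intron of the noncoding Gm3764. In each library Mir9-1 was below Mir9-3, and the values of these copies did not overlap. The ratio of Mir9-3 to Mir9-1 reads was 2.34 in replicate 1 (exact 95% interval 2.03 to 2.70) and 3.47 in replicate 2 (2.90 to 4.17).

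Mir9-2 had 9 reads in replicate 1 and 2 in replicate 2, or 2.53 and 0.724 CPM (1.63 ± 1.28, n = 2). It lies at chr13:83738814-83738885 on the plus strand (ENSMUSG00000065424.2), in an exon of the noncoding C130071C03Rik. It was below Mir9-1 and Mir9-3 in each library, with 1 Mir9-2 read for 30.8 Mir9-1 reads in replicate 1 (15.98 to 68.0) and for 79 in replicate 2 (21.5 to 658). The order of the copies by reads, Mir9-3, Mir9-1 and Mir9-2, was also their order by share of windows found at 1 locus. For Mir9-1 and Mir9-2 that order rests on hairpin length alone. Both had 15 windows at 2 loci and 9 at 3 loci, out of 68 in Mir9-1 (89 bases) and 51 in Mir9-2 (72 bases). With 3 copies the shared order is a description, and the level of each locus before reads at several places were set aside was not tested.

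The Mir124a copies had few assigned reads. Mir124a-1 had 5 and 10 reads (1.41 and 3.62 CPM, 2.51 ± 1.57, n = 2). Mir124a-2 had 6 and 5 (1.69 and 1.81 CPM, 1.75 ± 0.0873, n = 2). Mir124a-3 had 9 and 2 (2.53 and 0.724 CPM, 1.63 ± 1.28, n = 2). Their exact 95% Poisson intervals, which cover counting error only, overlapped within each library, with bounds of 0.457 to 4.81 CPM (replicate 1) and 0.0877 to 6.66 CPM (replicate 2). Overlap of separate intervals does not compare copies directly, and no ratio between these copies was computed. At these low counts no order among them held in both libraries, nor between them and Mir9-2.

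Mir124a-1 (ENSMUSG00000065597.1) lies at chr14:64590657-64590741 in an exon of its noncoding host Mir124a-1hg. Mir124a-2 (ENSMUSG00000093073.1) lies at chr3:17795662-17795770 in an exon of Mir124-2hg. Mir124a-3 (ENSMUSG00000065454.2) lies at chr2:180894040-180894107 and is contained in no other annotated gene. All are on the plus strand of mm10.

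**Figure D2:**
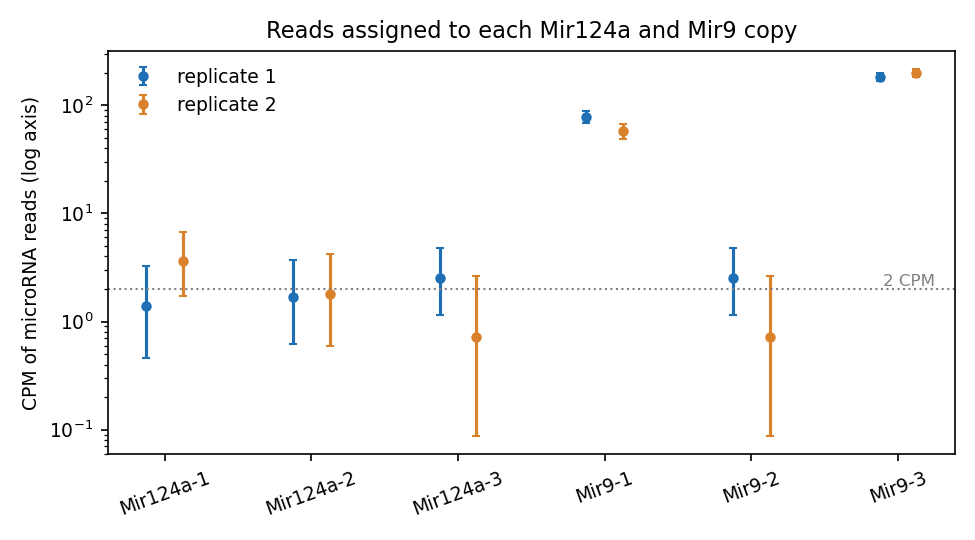
Level of each copy in CPM of microRNA reads (log axis) in replicate 1 (blue) and replicate 2 (orange), with exact 95% Poisson intervals for counting error as bars and a dotted line at 2 CPM. Mir9-3 and Mir9-1 stand well above the line in both libraries, and the intervals of Mir9-2 and the Mir124a copies cross it in both.

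All 6 copies had a read in both libraries, which 29.6% of all genes had. At 2 CPM or more in both libraries, 2 of 6 were detected, Mir9-1 and Mir9-3, against 20.4% of all genes. The limit that a count of 0 allows (3 reads) was 0.844 CPM for replicate 1 and 1.09 CPM for replicate 2, so Mir9-2 and Mir124a-3 in replicate 2 were below what a count of 0 allows there. Per base of annotated hairpin, an alternative chosen after seeing the data, Mir9-3, Mir9-1 and Mir124a-1 kept places 1 to 3 of the 6, while Mir124a-2 moved from place 4 to place 6.

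Summed over copies, Mir9 had 933 and 708 reads, or 262 and 256 CPM (259 ± 4.23, n = 2). That was 0.0262% of microRNA reads in replicate 1 (Wilson 95% interval 0.0246 to 0.0280) and 0.0256% in replicate 2 (0.0238 to 0.0276). Mir124a had 20 and 17 reads, or 5.63 and 6.16 CPM (5.89 ± 0.376, n = 2). The summed Mir9 level was nearly the same in both libraries, while the few Mir124a reads give wide counting intervals (3.44 to 8.69 and 3.59 to 9.86 CPM). Mir9 had 46.7 times the reads of Mir124a in replicate 1 (exact interval 30.03 to 76.7) and 41.6 times in replicate 2 (25.8 to 71.9).

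Reads that mapped to several places numbered 5352140 in replicate 1 and 4070537 in replicate 2, or 45.8% and 41.0% of all reads. Reads assigned to the Mir9 loci equalled 0.0174% of that total in each library. Those assigned to Mir124a equalled 0.000374% and 0.000418%. Put the other way, there were 5736 and 5749 reads mapped to several places for each read assigned to a Mir9 locus. For Mir124a there were 267607 and 239443. How many of them carried a mature strand of either family is not in the tables, so the assigned counts are not levels of miR-9 or miR-124.

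The split of Mir9 reads between loci was led by Mir9-3 in both libraries. Mir9-3 held 69.3% of the family's reads in replicate 1 (exact Clopper-Pearson interval 66.3 to 72.3) and 77.4% in replicate 2 (74.1 to 80.4). Mir9-1 held 29.7% (26.8 to 32.7) and 22.3% (19.3 to 25.6), and Mir9-2 held 0.965% (0.442 to 1.82) and 0.282% (0.0342 to 1.02). The intervals of Mir9-3 and of Mir9-1 did not overlap between the libraries, while the sum over the family was within 4.23 CPM (SD) of its mean. In Mir124a the leading copy differed, Mir124a-3 with 45% (23.1 to 68.5) in replicate 1 and Mir124a-1 with 58.8% (32.9 to 81.6) in replicate 2, and the intervals of each copy overlapped between libraries.

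**Figure D3:**
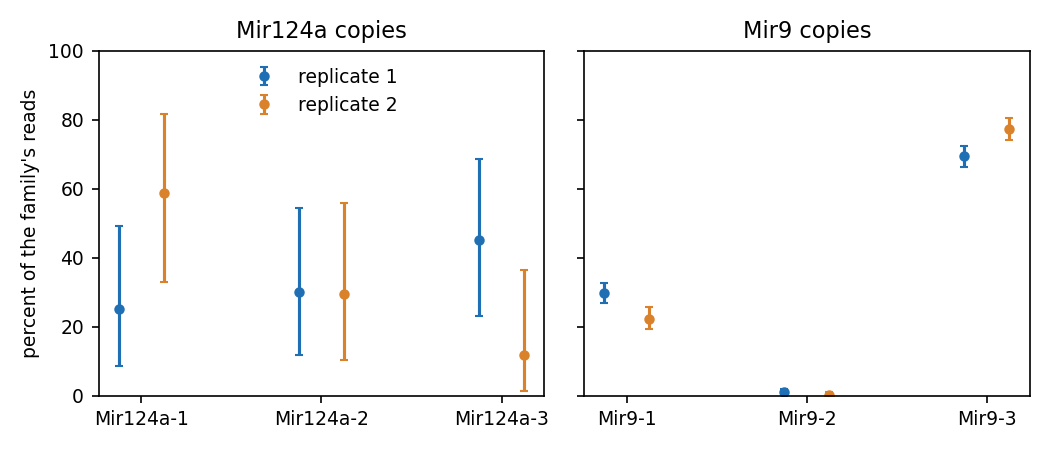
Share of each family's assigned reads (percent, y axis) held by each copy in replicate 1 (blue) and replicate 2 (orange), with exact 95% Clopper-Pearson intervals as bars. Mir9-3 holds 69.3% and 77.4% of the Mir9 reads, and the intervals of the Mir124a copies overlap.

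Log2 ratios of replicate 2 over replicate 1, scaled by trimmed means of M-values (TMM), were close to 0 for the summed Mir9 reads (0.00, counting interval -0.14 to 0.15) and wider for the summed Mir124a reads (0.17, -0.86 to 1.18). Mir9-1 was higher in replicate 1 (-0.41, -0.70 to -0.12). Mir9-3 had 0.16 (-0.004 to 0.33). Of the 6 copies, 1 had a counting interval that excluded 0, against 55.2% of the 525 genes that had at least 10 reads over both libraries. These shares are not matched for depth, since intervals widen as reads fall. The median level was 2.13 CPM over the 6 copies and 40.6 CPM over the 525 genes. Ratios of at least 2-fold were found for Mir124a-3 and Mir9-2 toward replicate 1 (-1.52 each, -5.02 to 0.51) and for Mir124a-1 toward replicate 2 (1.34, -0.28 to 3.30). These 3 of 6 stand beside 23.8% of the 525 genes at that fold, and all 3 intervals include 0. Mir124a-2 had 0.16 (-1.91 to 2.12). The median over the 6 was -0.12, and over the 525 genes it was 0.01.

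MicroRNAs of some other cell types also differed between the libraries. The 5 epithelial genes held 0.193% of replicate 1 and 0.00938% of replicate 2, the 4 genes of choroid plexus and ciliated cells 0.522% and 0.279%, and the red cell genes Mir451a and Mir144 0.00233% and 0.0520%. Endothelial Mir126a held 1.28% and 1.97%. Mural cell genes held 0.348% and 0.409%, microglia and leukocyte genes 0.0514% and 0.0472%, and oligodendrocyte genes 0.0913% and 0.0613%. Ratios of 2-fold or more toward replicate 1 were found for 5 of 5 epithelial and 2 of 4 choroid plexus and ciliated cell genes. Toward replicate 2 they were found for 2 of 2 red cell genes. Over the 525 genes with at least 10 reads over both libraries these shares were 12.6% and 11.2%. No gene of the remaining lists reached 2-fold, and mural, microglia and oligodendrocyte lists each held ratios in both directions. Their part in the split of Mir9 reads was not tested. In such bulk tissue, fewer cells of a type and less RNA per cell cannot be told apart.

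On the strand opposite Mir9-1 the annotation holds Gm25641, which overlaps its hairpin in full. Gm25641 had 0 reads on its own strand in both libraries. The 277 and 158 reads opposite to it equalled the Mir9-1 counts. Counted without strand, where reads in overlaps of opposite genes stand as ambiguous, Mir9-1 was listed at 0 in both libraries. RefSeq places miR-9b, an antisense microRNA, in Gm25641. It is shown because its seeds are not those of miR-9.
miR-9b-5p: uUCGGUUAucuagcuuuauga
miR-9b-3p: aUACAGCUagauaaccaaaga

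Each family had 1 copy with another microRNA gene on the same strand within 10000 bases. Mir3093 ends 340 bases before Mir9-1, within the same host Gm3764, and had 166 and 172 reads (54.5 ± 11.04 CPM, n = 2). Its mean lay within the spread (SD, n = 2) of that of Mir9-1, but their order differed between the libraries. Mir3093 had fewer reads than Mir9-1 in replicate 1 (166 against 277) and more in replicate 2 (172 against 158). Mir3078 starts 443 bases after Mir124a-1 and had 113 and 76 reads (29.7 ± 3.01 CPM, n = 2). In each library Mir3078 had more reads than Mir124a-1 (5 and 10).

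Other brain microRNA genes had more assigned reads than most of these copies. A list of 25 neuron-enriched or progenitor microRNA genes held 9.71% ± 1.36 of microRNA reads (n = 2). Of these, 25 of 25 were detected, against 20.4% of all genes. They were chosen with earlier results of these data known, so this count is a description only. The list was led by Mir139 (23650 ± 6626 CPM), Mir149 (20893 ± 1462 CPM), Mir137 (14035 ± 512 CPM), a regulator of neuronal maturation, and Mir128-1 (10396 ± 5201 CPM), known from neuronal excitability. By mean CPM, 16 of the 25 lay above Mir9-3 and 23 above Mir9-1. All 25 lay above Mir9-2 and above each Mir124a copy. A ratio of 2-fold or more toward replicate 1 was found for 2 of the 25 and toward replicate 2 for 3. Among the 525 genes with at least 10 reads over both libraries these shares were 12.6% and 11.2%.

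**Figure D4:**
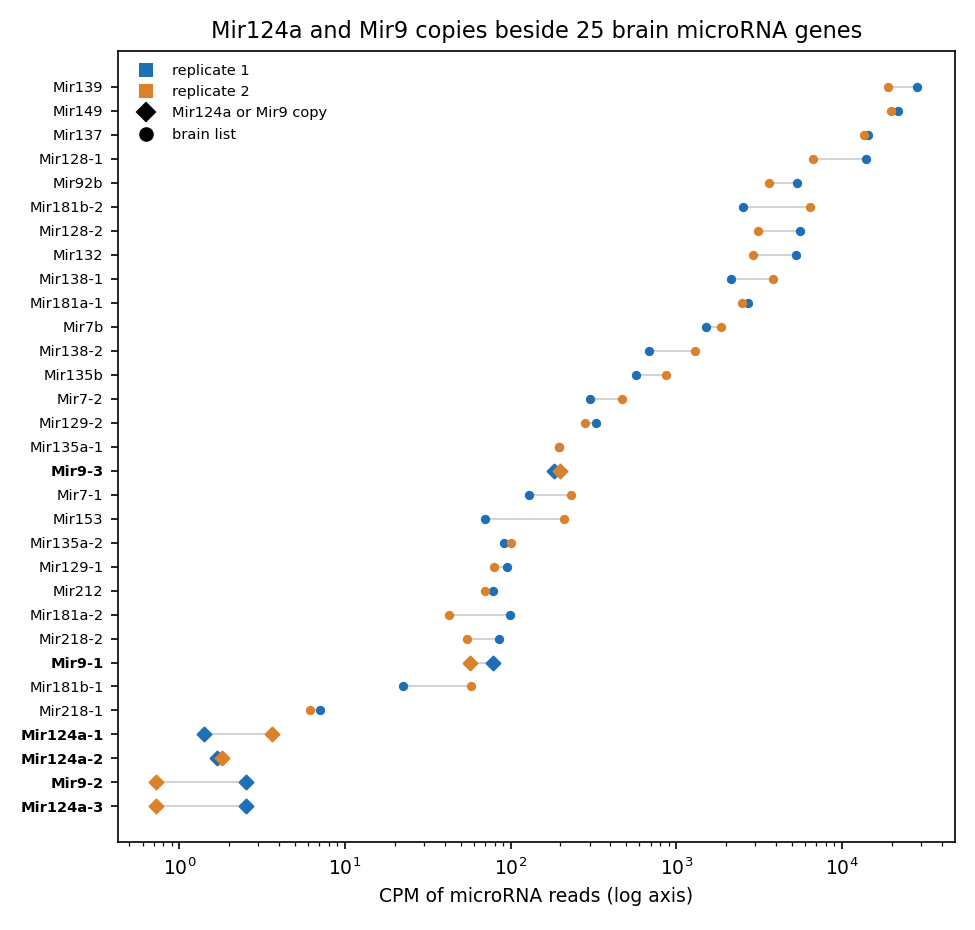
Level in CPM of microRNA reads (log axis) of 25 brain microRNA genes (circles) and of the 6 Mir124a and Mir9 copies (diamonds, bold names) in replicate 1 (blue) and replicate 2 (orange), ordered by mean. Mir9-3 and Mir9-1 fall among the lower brain genes, and Mir9-2 and the Mir124a copies lie below all 25.

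Of the 25 genes, 16 belong to pairs of numbered loci. In 15 of these 16, a mature strand in the RefSeq table was found at a single locus, whereas neither strand of any Mir9 copy was. The exception was Mir129-1 (87.5 ± 11.5 CPM), for which the table lists 1 strand. Windows of 22 bases found at 1 locus made up 87.3% to 98.9% of these 16 hairpins, beside 52.9% to 87.0% of the Mir9 hairpins. The 15 genes had levels of 6.59 to 10396 CPM with a median of 304 CPM. This comparison was chosen after seeing the data, and its bearing on the levels was not tested. The Mir128 pair is shown as an example, since its 3p strand is shared and its 5p strands are not. Capitals mark the seed.
miR-128-3p: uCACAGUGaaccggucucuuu
miR-128-1-5p: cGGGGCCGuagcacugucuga
miR-128-2-5p: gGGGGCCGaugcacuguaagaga
Mir128-1 held 69.9% ± 2.32 of the reads of its pair and Mir128-2 held 30.1% ± 2.32 (n = 2). Over the 8 pairs the share of the leading copy ranged from 67.4% to 99.1%. The leading Mir9 copy, among 3 loci, held 73.4% ± 5.70 of its family's reads.

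The genes nearest in level, over 2 libraries, were Mir702 (193 ± 13.9 CPM) above and Mir1224 (182 ± 5.00 CPM) below Mir9-3. Mir217 (67.7 ± 14.9 CPM) and Mir10b (66.1 ± 7.95 CPM) lay on either side of Mir9-1. Around Mir124a-1 they were Mir6988 (2.53 ± 0.00283 CPM) and Mir6912 (2.49 ± 3.13 CPM), and Mir1943 had the same counts as Mir124a-2. Mir615 had the same counts as Mir124a-3 and Mir9-2.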

How the data were processed

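Each library has its own deposited table of raw read counts by microRNA gene. Build mm10 and annotation M21 were used, per the deposited notes. Aligner, counter and trimming are not given in the sources used here. The 3 columns without names were read as either strand, annotated strand and opposite strand, from their layout and values. Annotated-strand counts were used. CPM was computed here over the 3555469 and 2761003 microRNA reads of replicates 1 and 2, from 11686912 and 9938361 reads in all, so 1 CPM is worth 3.56 and 2.76 reads. Totals that name no gene stayed out of CPM. Reads without molecular identifiers are not independent molecules, so intervals and limits cover counting error only.

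Ratios used TMM factors (edgeR 4.0.16) from genes with at least 10 reads over both libraries and 0.5 added to each count. They were checked on simulated Poisson counts, which hold counting error only. That check does not cover further differences between real libraries. Windows were searched in the 2202 M21 hairpins and 1005 RefSeq hairpins. The 6 genes, the lists and the rule for named genes (the 6 genes, the leading genes of the brain list, families of numbered loci and nearest genes by level) were chosen with earlier results of these data known. Variants of the CAST parent were not analysed here.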

Additional observations from a re-analysis of the deposited data

Results flagged for a closer look

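Reads on the strand opposite a copy lie outside the counts used for its level. Mir124a-3 had 6 such reads in replicate 1 beside 9 on its own strand, and 0 in replicate 2. Mir9-3 had 5 in replicate 1 beside 647 on its own strand, and 0 in replicate 2. Both counts are above the 3 that a count of 0 allows, and no microRNA gene of the annotation lies opposite either hairpin. Of the 2138 genes that face no other microRNA gene, 7 had more than 3 opposite reads in replicate 1, and opposite reads made up 0.00440% of their reads. RefSeq places miR-9b strands (Gm51285) opposite Mir9-3.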

How the results depend on the processing

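Counted on either strand, levels were 7.18 CPM for Mir124a, 205 for Mir9, 1.86 for Mir124a-2, 0 for Mir9-1 and 204 for Mir9-3, the share of Mir9-3 was 99.1%, and 1 copy was detected. Scaled to all reads of a library, CPM levels were 1.71 for Mir124a, 75.5 for Mir9, 0.717 for Mir124a-1, 0.508 for Mir124a-2, 19.8 for Mir9-1 and 55.3 for Mir9-3. Detection held for 4 copies at 1 CPM, 6 at 1 read, and 3 to 4 in single libraries. Of all mapped reads, Mir124a reads were 0.000221% and Mir9 reads 0.00973%. Windows found at 1 locus made up 83.6% of Mir9-1, 77.3% of Mir9-2 and 100% of Mir9-3 at 29 bases, and 76.7% and 95.5% of Mir9-3 at 18 and 25 bases. Per all reads the log2 ratio was -0.01 for Mir9-3 and -0.16 for Mir9. Without a genome, the whole-genome window search was not run, and ratios between replicates have no value with 1 library left out. No paired analysis was possible because the samples form 1 group. Counts of 2 to 10 limit what can be said of Mir124a and Mir9-2.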

Other observations

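Among the 2202 genes, 10 families had 3 or more numbered loci by symbol. Mir9 was the only one of them with 100 or more summed reads, and Mir124a was next with 20 and 17. Mir297a had 4 and 0 reads, Mir344d had 2 and 0, and 6 families had no read in either library. In the RefSeq table, 54 of 1674 distinct mature sequences (3.23%) stood at 2 or more loci and 9 (0.538%) at 3 or more, and miR-9-5p and miR-9-3p were among the latter.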
